A study of Rattus norvegicus with 9 samples.

Results

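The genes described here encode lysosomal enzymes and activator proteins that take apart sphingolipids. They are Gla, Glb1, Hexa, Galc, Asah1, Psap, Gm2a, and Arsa, chosen by symbol as the pathway around Gla, and all 8 were found among the 35362 genes of the table. ASCs, the mesenchymal stem cells grown from fat, came from male Sprague Dawley rats aged 6 weeks and were sequenced at passage 3. SASCs came from subcutaneous fat of the groin, PASCs from perirenal fat, and EASCs from epididymal fat, and the data hold 3 samples of each, 9 in all. All groups were released with collagenase, grown in medium with fetal bovine serum, and received no further treatment that the labels name. Whether the samples of 1 group stem from different animals is not given in the sources used here, so the p-values below measure only the spread between these samples, which may be technical.

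Sphingolipids are membrane lipids built on ceramide, and those that carry sugars are degraded in the lysosome one sugar at a time from the outer end. Soluble hydrolases remove the sugars and sulfate, small activator proteins lift the lipid out of the membrane for them, and acid ceramidase splits the remaining ceramide. Inherited loss of such a step causes a storage disease, such as Fabry disease for GLA, Tay-Sachs disease for HEXA, and Krabbe disease for GALC.

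Expression is given as CPM, each gene's counts relative to the library's size, scaled by edgeR's TMM method. Total counts ranged from 17591916 to 30299032 per sample, and 3 counts corresponded to 0.104 to 0.159 CPM. The 7 genes of ribosomal RNA took 10.4% to 15.5% of counts in SASCs against 22.4% to 32.9% in PASCs and 15.9% to 40.3% in EASCs. In counts without these genes, the 8 genes together held 0.258% to 0.267% in SASCs against 0.113% to 0.117% in PASCs and 0.144% to 0.146% in EASCs. The cells of every group carried all 7 mesenchymal markers on the list, with summed levels of 4135 to 4262 CPM in SASCs against 3784 to 3960 CPM in PASCs and 4958 to 5027 CPM in EASCs. Single markers moved in opposite directions, since Pdgfra had log2 fold changes of -2.47 in PASCs and -2.72 in EASCs against SASCs, while Itgb1 had 0.79 and 1.50 and Eng 0.58 and 1.77, all with edgeR's adjusted p under 0.05 (Eng in PASCs did not pass with total counts).

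In the coordinates of the table, which fit the rn6 build, Psap lies on chromosome 20 from 29831302 to 29856876 and Gm2a on chromosome 10 from 40438394 to 40450927. Gla lies on chromosome X from 105405675 to 105417332, Hexa on chromosome 8 from 64325435 to 64350775, and Glb1 on chromosome 8 from 122439328 to 122511939. Galc lies on chromosome 6 from 122177195 to 122239411, Asah1 on chromosome 16 from 53998604 to 54030006, and Arsa on chromosome 7 from 130448291 to 130450817. Gla, Galc, and Arsa are on the minus strand and the other 5 on the plus strand. Glb1 was the 1 member that overlapped another gene of the table, LOC102555172 on the same strand, which held at most 466 counts in a sample against 1112 to 2636 for Glb1.

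Promoters were examined for the E-box CACGTG and its longer form GTCACGTG, the core of the element through which MiT/TFE transcription factors are known to act on lysosomal genes. Of the 8 genes, 4 had a promoter in the RefSeq table of the GRCr8 build, namely Galc, Glb1, Gm2a, and Gla. The 250 bases before each start site are printed 5′ to 3′ on the strand of the gene, with capitals for matches to the longer form on either strand. They lie at chr6:123245560-123245809 (minus) for Galc, chr8:122963468-122963717 (plus) for Glb1, chr10:39719669-39719918 (plus) for Gm2a, and chrX:102073916-102074165 (minus) for Gla. All 4 that were available are shown, so that Galc, which stood apart from the other members in expression, stands beside 3 that did not.
Galc: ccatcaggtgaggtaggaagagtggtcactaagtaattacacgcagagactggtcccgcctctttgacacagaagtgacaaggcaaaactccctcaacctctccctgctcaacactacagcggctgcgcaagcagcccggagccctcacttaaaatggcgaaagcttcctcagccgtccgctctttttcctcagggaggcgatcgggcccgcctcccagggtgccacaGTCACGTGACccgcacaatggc
Glb1: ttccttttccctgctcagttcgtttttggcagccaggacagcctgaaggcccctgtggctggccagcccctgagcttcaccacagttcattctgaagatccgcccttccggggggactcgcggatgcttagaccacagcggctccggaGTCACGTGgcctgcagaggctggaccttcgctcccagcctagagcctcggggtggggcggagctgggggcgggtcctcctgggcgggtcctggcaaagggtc
Gm2a: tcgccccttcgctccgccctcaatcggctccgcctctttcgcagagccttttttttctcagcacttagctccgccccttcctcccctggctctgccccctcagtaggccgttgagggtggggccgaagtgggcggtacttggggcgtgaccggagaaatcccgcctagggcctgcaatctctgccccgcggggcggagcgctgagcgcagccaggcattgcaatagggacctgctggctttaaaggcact
Gla: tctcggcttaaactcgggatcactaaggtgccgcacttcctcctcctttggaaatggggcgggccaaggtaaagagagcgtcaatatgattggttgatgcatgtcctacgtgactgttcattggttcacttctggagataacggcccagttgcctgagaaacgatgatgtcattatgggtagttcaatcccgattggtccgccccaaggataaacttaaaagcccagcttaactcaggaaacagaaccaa
In Galc the longer form matched on both strands around 1 E-box, whose first base was 20 bases before the start site, and in Glb1 it matched once, starting 102 bases before. Neither form was present in this window of Gm2a or Gla. Over the same window of all 27457 promoters in the table, 5.79% held the E-box and 1.78% the longer form, and among the genes tested for expression these shares were 8.03% and 3.34%. A match describes the letters of the window and was not tested for binding.

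Differences between groups were tested with edgeR's quasi-likelihood test, fitted to the 3 groups together and adjusted by Benjamini-Hochberg over the 14770 genes that passed its filter on low counts, among them all 8 members. Genes were counted as DEGs when the adjusted p-value was under 0.05 and the levels differed more than 2-fold. Compared with SASCs, 7 of the 8 genes were lower in PASCs and 7 of the 8 were lower in EASCs at an adjusted p-value under 0.05. Galc was the exception in both comparisons. Both comparisons use the same 3 SASCs samples.

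In PASCs against SASCs, 5 of the 8 genes were DEGs with lower expression and 0 were DEGs with higher expression by edgeR and by DESeq2, against 14.9% and 12.0% of all genes tested. At adjusted p alone, 7 were lower and 0 higher, against 34.6% and 34.6% of all genes, and at an unadjusted p under 0.05 again 7 were lower and 0 higher, against 35.7% and 35.7%. For 7 of the 8 every PASCs sample lay below every SASCs sample, as it did for 36.0% of all genes. In EASCs against SASCs, 0 of the 8 were DEGs in either direction by edgeR and by DESeq2, against 14.2% lower and 13.6% higher among all genes. At adjusted p alone, 7 were lower and 1 higher, against 34.3% and 35.5% of all genes, and at an unadjusted p under 0.05 also 7 and 1, against 35.4% and 36.5%. For 7 of the 8 every EASCs sample lay below every SASCs sample, against 35.8% of all genes. Without the TMM factors, 5 of the 8 were lower DEGs in EASCs and 7 in PASCs. Under that scaling by total counts the median log2 fold change of all genes tested was -0.39 in EASCs and -0.33 in PASCs, and 23.2% of all genes were lower and 9.13% higher DEGs in EASCs, with 21.5% and 8.54% in PASCs.

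The median log2 fold change of the 8 genes was -1.02 in PASCs and -0.70 in EASCs, beside -0.01 and 0.01 for all genes tested. With total counts these medians were -1.35 and -1.09, beside -0.33 and -0.39. In bulk RNA, fewer cells that express a gene and less RNA per cell cannot be told apart. Markers of other cell types differed between the same groups. The summed level of 6 adipocyte markers was 1781 to 1859 CPM in SASCs against 122 to 152 CPM in PASCs and 120 to 124 CPM in EASCs, and all 5 that were tested were DEGs with lower expression in both comparisons. The most abundant of them was Lpl, lipoprotein lipase, while Lep, the gene of the hormone leptin, was under 1 CPM in every group. The 9 macrophage and leukocyte markers found summed to 75.5 to 83.4 CPM in SASCs against 131 to 136 CPM in PASCs and 210 to 219 CPM in EASCs. Of them, 8 were higher in each comparison, but the macrophage receptor Cd163 was a lower DEG in PASCs (log2 fold change -1.88) and did not pass in EASCs (0.15). With total counts, 5 were higher in PASCs and 6 in EASCs. The 6 mesothelial markers summed to 19.3 to 20.8 CPM, 219 to 221 CPM, and 184 to 199 CPM in the same order. All 5 that were tested were higher DEGs in both comparisons, with median log2 fold changes of 4.23 and 4.81, while the sixth, Krt19, was at 0 in every PASCs sample. The 5 endothelial markers summed to 41.6 to 44.2 CPM, 11.5 to 14.3 CPM, and 29.3 to 32.1 CPM. Tek, a receptor of endothelial cells, was a higher DEG in both comparisons (log2 fold change 1.71 and 1.66), against 4 lower DEGs in PASCs and 1 in EASCs, where the cadherin Cdh5 did not pass (0.09). The part of these cells in the differences of the 8 genes was not tested.

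**Figure D1:**
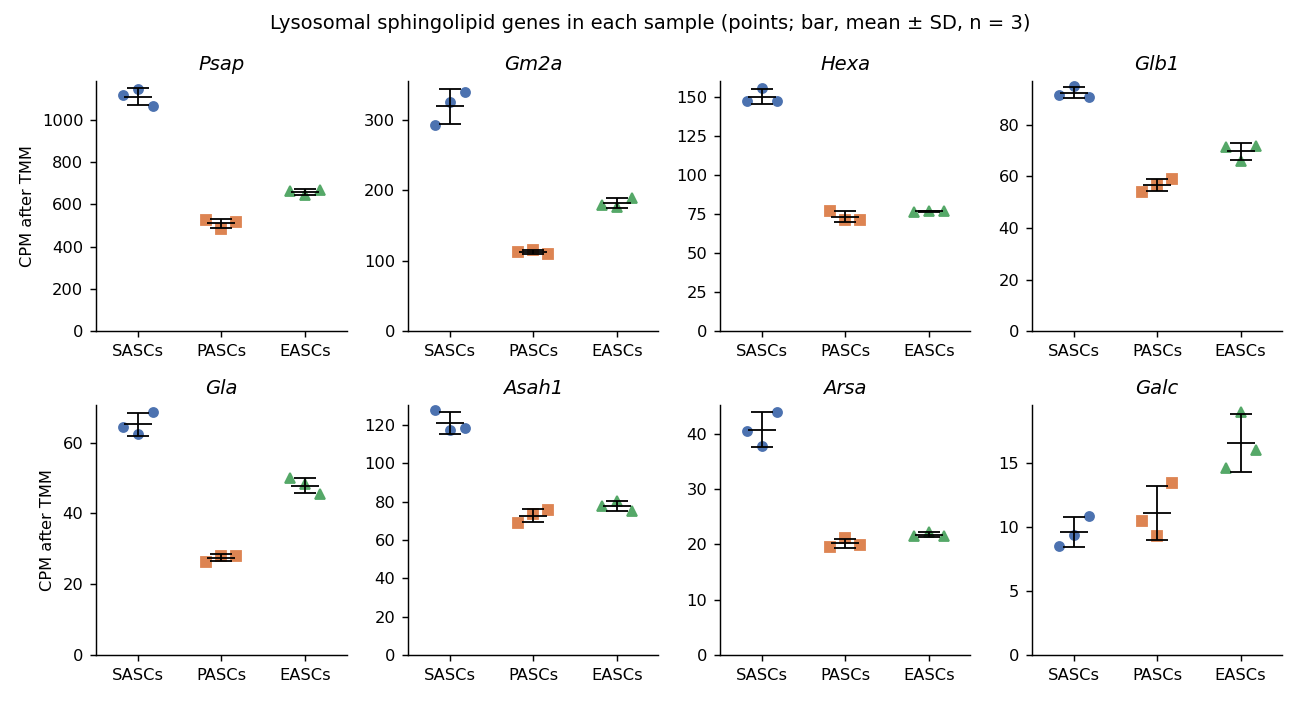
Expression of each of the 8 genes in CPM after TMM (vertical axes, each from 0) in every sample of SASCs, PASCs, and EASCs, with bars for the mean ± SD (n = 3). For 7 genes all SASCs samples lie above all PASCs and EASCs samples, whereas for Galc the EASCs samples at 14.7 to 19.1 CPM lie above all others, and SASCs at 8.55 to 10.9 CPM overlap PASCs at 9.31 to 13.5 CPM.

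The activator proteins come first. Psap encodes prosaposin, the precursor that is cut into the saposins, small activators that help several of the hydrolases reach their lipid. Psap stood at 1118, 1146, and 1066 CPM in the SASCs samples, 528, 484, and 518 CPM in the PASCs samples, and 662, 643, and 669 CPM in the EASCs samples. Every SASCs sample was above every other sample, and EASCs were above PASCs without overlap. In PASCs Psap was 54.1% lower than in SASCs (log2 fold change -1.12, SE 0.0554, adjusted p = 3.45e-16), and in EASCs it was 40.7% lower (log2 fold change -0.75, SE 0.0550, adjusted p = 1.74e-12). EASCs exceeded PASCs 1.29-fold (log2 fold change 0.37, 95% CI 0.25 to 0.48, adjusted p = 5.81e-06), but with total counts in place of TMM this difference was 0.29 with an adjusted p of 0.271. Despite these differences, Psap took 56.3% to 59.1% of the counts of the 8 genes in all 9 samples.

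Gm2a encodes the GM2 activator, which presents the ganglioside GM2 to hexosaminidase A. Its level was 293, 325, and 340 CPM in SASCs, 112, 116, and 110.0 CPM in PASCs, and 180, 176, and 190 CPM in EASCs, again in 3 ranges that did not overlap. Gm2a had the largest decrease of the 8 genes in PASCs, 64.7% (log2 fold change -1.50, SE 0.0591, adjusted p = 1.95e-18). In EASCs it was 43.0% lower than in SASCs (log2 fold change -0.81, SE 0.0577, adjusted p = 1.03e-12) and 1.62-fold higher than in PASCs (log2 fold change 0.69, SE 0.0588, adjusted p = 2.54e-10).

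Of the enzymes that remove sugars, Hexa encodes the alpha subunit of hexosaminidase A, which acts on GM2. Hexa was at 147, 156, and 147 CPM in SASCs, 77.2, 71.4, and 71.2 CPM in PASCs, and 76.2, 76.6, and 77.1 CPM in EASCs. All SASCs samples were higher than the rest, while PASCs and EASCs overlapped. The decrease was 51.2% in PASCs (log2 fold change -1.03, SE 0.0555, adjusted p = 2.18e-15) and 49.0% in EASCs (log2 fold change -0.97, SE 0.0553, adjusted p = 7.92e-15), on either side of the 2-fold threshold. The difference of EASCs from PASCs was 0.06 on the log2 scale (95% CI -0.05 to 0.18, adjusted p = 0.434), and -0.01 with total counts.

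Per kilobase of gene length, the ratio of Gm2a to Hexa was 1.86 to 2.17 in SASCs against 1.36 to 1.52 in PASCs and 2.16 to 2.31 in EASCs. PASCs thus had the lowest ratio of the activator to this subunit of its enzyme, with no overlap with either other group.

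Glb1 encodes the lysosomal beta-galactosidase, which takes the terminal galactose from the ganglioside GM1. Its level was 91.6, 94.8, and 90.7 CPM in SASCs, 54.1, 56.7, and 58.9 CPM in PASCs, and 71.5, 65.8, and 71.6 CPM in EASCs. The 3 groups did not overlap, and EASCs lay between the others. Glb1 was 38.9% lower in PASCs (log2 fold change -0.71, SE 0.0587, adjusted p = 2.58e-11) and 24.6% lower in EASCs (log2 fold change -0.41, SE 0.0580, adjusted p = 6.14e-07). Compared with PASCs, EASCs were 1.23-fold higher (log2 fold change 0.30, 95% CI 0.18 to 0.42, adjusted p = 2.25e-04), which did not pass with total counts (log2 fold change 0.22, adjusted p = 0.448). The related gene Glb1l had at most 1963 counts in SASCs, 738 in PASCs, and 621 in EASCs, and Glb1l2 and Glb1l3 had at most 36 and 0 counts in any sample.

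Gla encodes alpha-galactosidase A, which removes the terminal galactose of globotriaosylceramide. The samples had 64.5, 62.4, and 68.6 CPM in SASCs, 26.3, 28.1, and 28.0 CPM in PASCs, and 49.9, 48.2, and 45.5 CPM in EASCs. EASCs lay between the other groups without overlap. Gla was 57.8% lower in PASCs (log2 fold change -1.25, 95% CI -1.38 to -1.11, adjusted p = 2.47e-15) but 26.5% lower in EASCs (log2 fold change -0.44, 95% CI -0.58 to -0.31, adjusted p = 8.56e-07). Of the 8 genes, Gla differed most between EASCs and PASCs, at 1.74-fold (log2 fold change 0.80, 95% CI 0.66 to 0.94, adjusted p = 2.38e-10). With TMM its level in EASCs was nearer to SASCs, and with total counts it was nearer to PASCs, at log2 fold changes of -0.83 against SASCs and 0.74 against PASCs. Per kilobase, the ratio of Gla to Psap was 0.0588 to 0.0695 in SASCs against 0.0538 to 0.0627 in PASCs and 0.0735 to 0.0814 in EASCs, where it was above both other groups.

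Galc encodes galactosylceramidase, which cleaves galactosylceramide and its deacylated form psychosine. It was the least abundant member, with 8.55, 9.38, and 10.9 CPM in SASCs, 10.5, 9.31, and 13.5 CPM in PASCs, and 14.7, 19.1, and 16.1 CPM in EASCs, from 221 to 470 counts in a sample. EASCs were above every other sample, whereas PASCs and SASCs overlapped. Galc was 1.74-fold higher in EASCs than in SASCs (log2 fold change 0.80, SE 0.130, adjusted p = 5.06e-06) and 1.51-fold higher than in PASCs (log2 fold change 0.59, SE 0.128, adjusted p = 6.43e-04). The difference of PASCs from SASCs did not pass (log2 fold change 0.20, 95% CI -0.07 to 0.48, adjusted p = 0.184), and its sign turned to -0.11 with total counts.

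The ratio of Galc to 3 other members was lowest in SASCs, where those 3 were highest, while Galc itself overlapped between SASCs and PASCs. Per kilobase, the ratio of Galc to Psap was 0.0046 to 0.0062 in SASCs against 0.0116 to 0.0157 in PASCs and 0.0134 to 0.0179 in EASCs. The ratio of Galc to Gla was 0.0740 to 0.0886 in SASCs against 0.185 to 0.268 in PASCs and 0.164 to 0.221 in EASCs. The ratio of Galc to Asah1 was 0.0354 to 0.0486 in SASCs, against 0.0670 to 0.0940 in PASCs and 0.0994 to 0.125 in EASCs. In all 3 ratios SASCs lay below the other groups without overlap, while PASCs and EASCs overlapped in those to Psap and Gla and did not overlap in that to Asah1.

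Arsa encodes arylsulfatase A, which removes sulfate from sulfatide and so yields the substrate of galactosylceramidase. Arsa was at 40.4, 37.8, and 44.0 CPM in SASCs, 19.5, 21.2, and 19.8 CPM in PASCs, and 21.5, 22.2, and 21.5 CPM in EASCs. SASCs stood above both other groups, which lay close together and did not overlap. The decrease was 50.4% in PASCs (log2 fold change -1.01, SE 0.0783, adjusted p = 6.09e-12) and 46.6% in EASCs (log2 fold change -0.91, SE 0.0777, adjusted p = 5.30e-11). In PASCs Arsa sat at the 2-fold threshold, and its log2 fold change was -0.96 without SASCs replicate 3 and -0.98 without PASCs replicate 1, which left 4 DEGs among the 8 genes. EASCs and PASCs differed by 0.11 on the log2 scale (95% CI -0.06 to 0.27, adjusted p = 0.354).

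Asah1 encodes acid ceramidase, the last step, which splits ceramide into sphingosine and a fatty acid. It had 128, 117, and 118 CPM in SASCs, 68.8, 73.5, and 75.7 CPM in PASCs, and 77.9, 80.3, and 74.9 CPM in EASCs. SASCs were the highest samples, and PASCs and EASCs overlapped. Asah1 was 40.1% lower in PASCs (log2 fold change -0.74, SE 0.0582, adjusted p = 9.31e-12) and 35.8% lower in EASCs (log2 fold change -0.64, SE 0.0580, adjusted p = 1.61e-10). The difference between EASCs and PASCs was 0.10 (95% CI -0.02 to 0.22, adjusted p = 0.228).

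**Figure D2:**
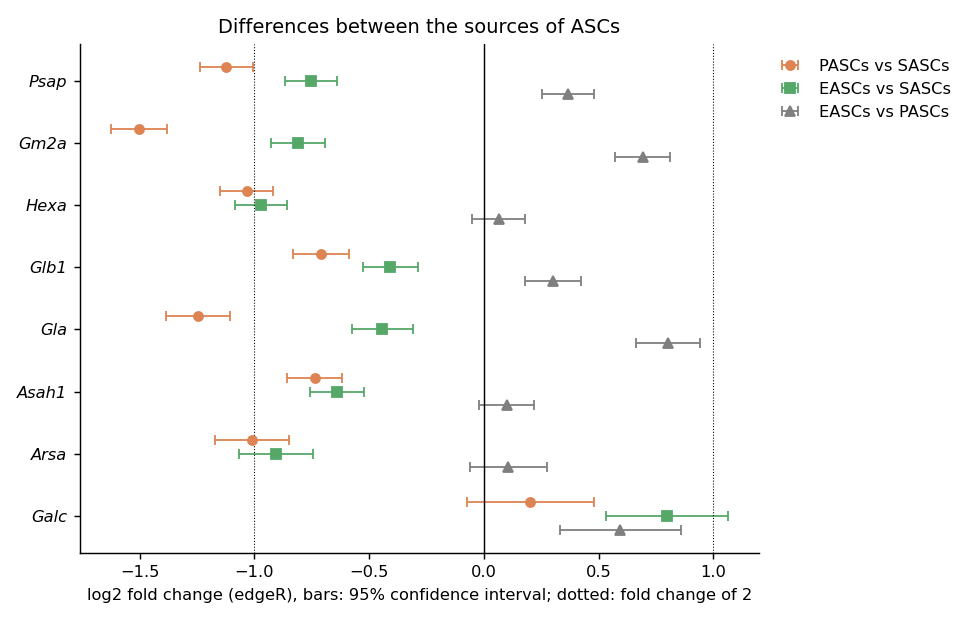
Log2 fold change of each gene with its 95% confidence interval from edgeR, for PASCs against SASCs (circles), EASCs against SASCs (squares), and EASCs against PASCs (triangles), where dotted lines mark a fold change of 2. Of the 8 genes, 7 lie below 0 in both comparisons with SASCs, and Galc lies at 0.20 and 0.80, the first of which was -0.11 with total counts.

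EASCs against PASCs tests directly whether both visceral sources differ. Of the 8 genes, 5 were higher in EASCs at adjusted p and 0 were lower, against 16.1% and 14.5% of all genes tested. With total counts 3 were higher and 0 lower, against 7.64% and 7.14% of all genes. By edgeR and by DESeq2, 0 were DEGs in either direction, against 5.19% higher and 2.20% lower among all genes, and at an unadjusted p under 0.05 again 5 were higher and 0 lower, against 2947 higher and 2817 lower (19.1%) of all 14770 genes. The 5 were Gla, Gm2a, Galc, Psap, and Glb1, in order of their difference. The intervals of the other 3, Hexa, Asah1, and Arsa, reached from -0.06 to 0.27 at most. The median of the 8 genes was 0.33, beside -0.01 for all genes tested.

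Levels of different genes were compared per kilobase of the gene length given in the table. In SASCs, Psap had 430 ± 15.8 CPM per kilobase (SD, n = 3), followed by Gm2a at 159 ± 12.2, Hexa at 79.9 ± 2.60, Asah1 at 53.5 ± 2.52, and Glb1 at 32.7 ± 0.766. Gla at 27.3 ± 1.32 CPM per kilobase and Arsa at 26.7 ± 2.03 overlapped, and Galc was last at 2.24 ± 0.276. Psap ranked at percentile 99.2 of the genes tested in SASCs, 98.3 in PASCs, and 98.6 in EASCs, whereas Galc ranked at 35.2, 38.7, and 46.2.

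The first 5 ranks and the last were the same in all 9 samples. Gla and Arsa changed places, since the 3 PASCs samples had 11.0 to 11.7 CPM per kilobase of Gla and 12.8 to 13.9 of Arsa, while the EASCs samples had 19.1 to 20.9 of Gla and 14.1 to 14.6 of Arsa. Gla ranked at percentile 87.0 in SASCs, 70.6 in PASCs, and 81.8 in EASCs. Apart from Gla and Arsa in SASCs, neighbours in this order did not overlap within a group.

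**Figure D3:**
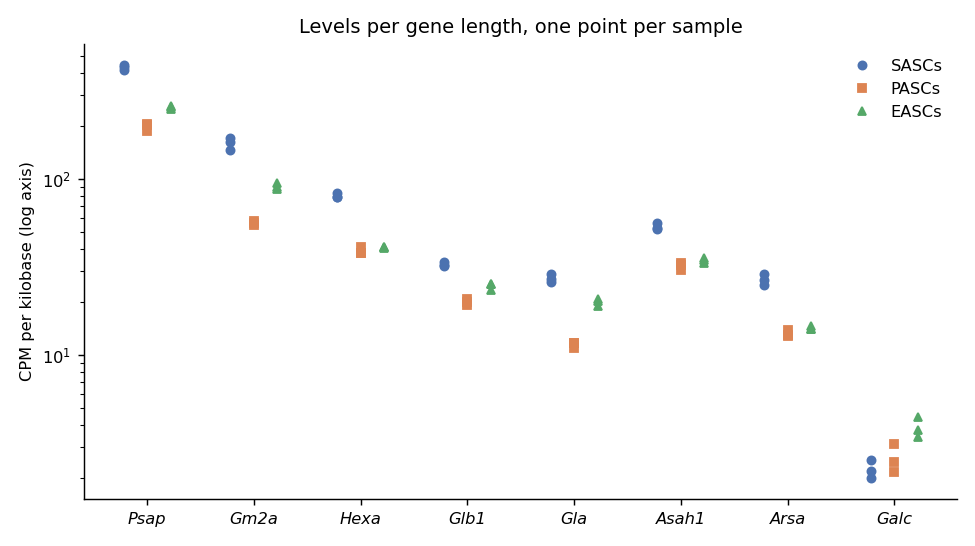
CPM per kilobase of gene length (log axis) for the 8 genes, with one point for each of the 3 samples of SASCs, PASCs, and EASCs. Psap is highest at 187 to 444 CPM per kilobase and Galc lowest at 2.00 to 4.45, and Gla lies above Arsa in EASCs but below it in PASCs.

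The other genes of the lysosomal sphingolipid pathway, which encode further hydrolases, their partners, and transport proteins, were lower with the members. Of 11 listed genes 10 were tested, and in both comparisons 9 were lower and 1 higher. Among all genes 34.6% were lower and 34.6% higher in PASCs, with 34.3% and 35.5% in EASCs. Lower DEGs were 5 in PASCs and 2 in EASCs, against 14.9% and 14.2% of all genes. The median log2 fold change was -0.98 in PASCs and -0.76 in EASCs. Ctsa, the protective protein that forms a complex with beta-galactosidase and neuraminidase, had 574 to 630 CPM in SASCs against 205 to 213 CPM in PASCs and 251 to 254 CPM in EASCs. Its log2 fold change was -1.53 in PASCs (adjusted p = 1.71e-19) and -1.25 in EASCs (adjusted p = 1.30e-17). Neu1, the neuraminidase of that complex, was at -1.48 and -1.30 (adjusted p = 1.55e-12 and 2.00e-11), so all 3 genes of the complex were lower in both groups.

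The 1 gene of this list that was higher was Smpd1, the acid sphingomyelinase, which was higher at 0.15 in PASCs (adjusted p = 0.0227) and 0.25 in EASCs (adjusted p = 5.22e-04), but was at -0.17 and -0.16 with total counts, where neither passed. In EASCs against PASCs, 4 of the 10 genes were higher and 0 lower, against 16.1% and 14.5% of all genes, with a median of 0.14. With total counts 0 were higher and 0 lower, and the median was 0.07. Smpd1 was named after its values were seen.

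Lysosomal hydrolases outside the pathway, which act on glycans, glycogen, proteins, and other lipids, were also lower. Of 18 tested, 17 were lower in PASCs and 17 in EASCs, against 34.6% and 34.3% of all genes. Lower DEGs were 8 in PASCs and 5 in EASCs, against 14.9% and 14.2% of all genes. The medians were -0.81 and -0.69. Idua, alpha-L-iduronidase, had log2 fold changes of -1.69 and -1.33 (adjusted p = 1.17e-17 and 1.66e-15), and Gaa, which degrades glycogen, had -1.56 and -1.48 (adjusted p = 7.52e-20 and 2.21e-19). Manba, beta-mannosidase, was at -1.49 and -0.81, and Aga, which cleaves the bond between sugar chain and asparagine, was at -1.11 and -1.22. The 1 gene not lower was Hgsnat, an acetyltransferase of heparan sulfate degradation named after its values were seen, at 0.17 in PASCs and 0.03 in EASCs. With total counts it was at -0.15 and -0.37, where the latter passed (adjusted p = 0.0393). All 18 were then lower in EASCs, against 46.7% of all genes.

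Of 19 genes of the lysosomal membrane and its proton pump, 16 were lower in PASCs and 15 in EASCs. Of all genes, 34.6% were lower and 34.6% higher in PASCs, with 34.3% and 35.5% in EASCs. In each comparison 1 of the 19 was higher, the pump subunit Atp6v0c, named after its values were seen. It was at 0.30 and 0.41 (-0.03 and 0.02 with total counts, where neither passed). The medians were smaller in size than those of the enzymes, -0.45 and -0.41. Lower DEGs were 4 in PASCs and 2 in EASCs, against 14.9% and 14.2% of all genes. Lamp1 and Lamp2, the abundant glycoproteins of the membrane, had log2 fold changes of -1.24 and -1.18 in PASCs and -1.13 and -0.94 in EASCs. Mcoln1, a calcium channel, was at -0.96 in PASCs and -1.25 in EASCs, Slc17a5, the sialic acid exporter, at -1.04 and -0.99, and Atp6v0a1, a pump subunit, at -1.09 and -0.82. All of these passed, and the largest adjusted p among them was 2.16e-09.

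Genes that sort hydrolases to the lysosome had medians of -0.02 in PASCs and -0.08 in EASCs over 9 genes. In PASCs 2 were lower and 3 higher, and in EASCs 3 were lower and 3 higher, no larger shares than among all genes (34.6% and 34.6%, and 34.3% and 35.5%). With total counts the numbers were 4 lower and 0 higher in PASCs, where 42.9% and 16.03% of all genes were, and 5 lower and 1 higher in EASCs, where 46.7% and 15.3% were. Gnptab and Gnptg, subunits of the enzyme that starts the mannose 6-phosphate tag, were at -0.43 and -0.52 in PASCs (adjusted p = 7.41e-06 and 1.68e-05) and -0.47 and -0.37 in EASCs (adjusted p = 2.08e-06 and 8.16e-04). The receptor Igf2r, which carries tagged enzymes, was higher at 0.36 and 0.52 (adjusted p = 2.01e-05 and 5.92e-08), which with total counts were 0.04 and 0.12 and did not pass. Sort1, the sortilin receptor, which is known to carry prosaposin, had 15.2 to 16.9 CPM in SASCs against 20.9 to 24.5 CPM in PASCs and 51.9 to 57.5 CPM in EASCs. Its log2 fold change was 1.74 in EASCs (SE 0.0805, adjusted p = 7.79e-17) and 0.51 in PASCs (adjusted p = 5.37e-06), of which the latter was 0.19 and did not pass with total counts.

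The MiT/TFE factors, known activators of lysosomal genes, moved in different directions. Mitf fell from 36.8 to 41.5 CPM in SASCs to 5.24 to 6.09 CPM in PASCs and 2.09 to 3.04 CPM in EASCs (log2 fold change -2.82, SE 0.111, adjusted p = 1.85e-18, and -3.87, SE 0.123, adjusted p = 1.58e-20). Tfeb was at 5.37 to 9.89 CPM in SASCs and was higher by 0.55 on the log2 scale in PASCs and 0.53 in EASCs (adjusted p = 0.00201 and 0.00296). For Tfe3 the value was 0.08 in PASCs (adjusted p = 0.261) and 0.22 in EASCs (adjusted p = 0.00206), the latter -0.17 with total counts. Tfec was the least abundant in SASCs at 0.626 to 1.22 CPM, and had 0.58 in PASCs (adjusted p = 0.0776) and 2.43 in EASCs (adjusted p = 2.89e-09). With total counts, Tfec in EASCs was the 1 factor that still passed as higher. Per kilobase, Mitf was the highest of the 4 in SASCs at 20.6 ± 1.30 CPM per kilobase (SD, n = 3), and Tfe3 was the highest in PASCs at 11.9 ± 0.305 and in EASCs at 13.2 ± 0.575.

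For sphingolipid synthesis, the reverse direction of the pathway, 17 genes were tested. Of them, 8 were lower and 6 higher in PASCs and 8 lower and 8 higher in EASCs, with medians of -0.11 and -0.13, beside the shares of all genes given for the sorting genes. With total counts, 9 were lower and 2 higher in each, again beside 42.9% and 16.03% of all genes in PASCs and 46.7% and 15.3% in EASCs. Ugcg, which adds the first glucose to ceramide, fell from 407 to 437 CPM in SASCs to 163 to 189 CPM in PASCs and 175 to 179 CPM in EASCs (log2 fold change -1.30 and -1.27, adjusted p = 4.40e-17 and 7.03e-17). B4galt5, which adds the next galactose, was at -1.92 and -1.24 (adjusted p = 5.06e-21 and 4.25e-17). St3gal5, which makes the ganglioside GM3 from their product, was higher at 1.27 and 1.83 (adjusted p = 1.05e-12 and 2.33e-16), as was Sgms2, a sphingomyelin synthase, at 1.93 and 1.63 (adjusted p = 4.08e-13 and 2.04e-11).

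Outside the lysosome, 12 genes of ceramide and sphingosine 1-phosphate turnover were tested, with medians of -0.21 and -0.18. In PASCs 6 were lower and 5 higher, against 34.6% and 34.6% of all genes tested. In EASCs 6 were lower and 4 higher, against 34.3% and 35.5%. With total counts 6 were lower and 0 higher in PASCs, against 42.9% and 16.03% of all genes. In EASCs 8 were then lower and 0 higher, against 46.7% and 15.3%. Acer2, the alkaline ceramidase of the Golgi, had 13.6 to 17.1 CPM in SASCs against 1.23 to 1.64 CPM in PASCs and 1.39 to 2.51 CPM in EASCs, at log2 fold changes of -3.51 and -3.11 (adjusted p = 1.97e-15 and 9.96e-15). Sgpl1, the lyase that ends sphingolipid breakdown, was at -1.41 and -1.54 (adjusted p = 2.46e-19 and 3.58e-20), and Smpd3, a neutral sphingomyelinase, at -1.18 and -1.98 (adjusted p = 9.43e-06 and 6.34e-09). Acer3, another alkaline ceramidase, named after its values were seen, differed from Acer2 and Asah1 in being higher at 0.32 and 0.41 (adjusted p = 0.00132 and 1.16e-04), and did not pass in either group with total counts. Of the genes named outside the members, Ctsa, Idua, Gnptab, Gnptg, St3gal5, Tfeb, Slc17a5, Itgb1, Pdgfra, and Tek overlap a gene of the table that had counts, on the same or the other strand, and the sources do not say whether strand was used in counting.

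**Figure D4:**
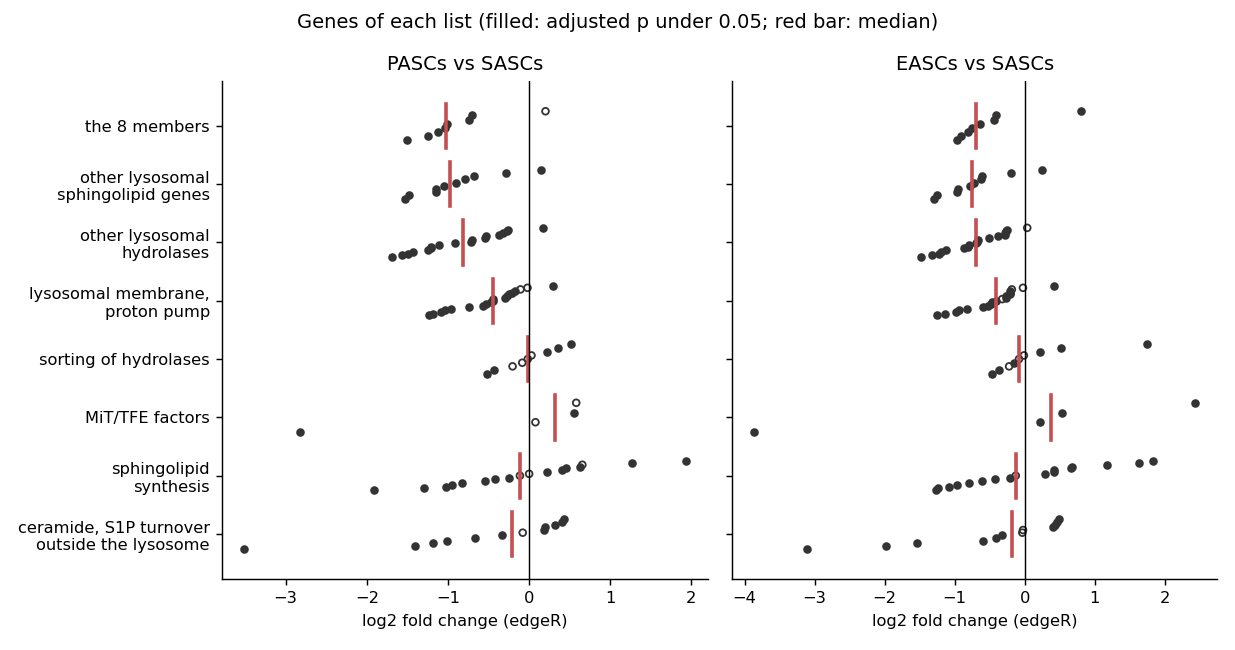
Log2 fold change of every tested gene of each list in PASCs against SASCs (left) and EASCs against SASCs (right), with filled points for an adjusted p under 0.05 and red bars for the list's median. The medians of the members and of both lists of lysosomal enzymes lie between -0.69 and -1.02, and those of the sorting genes at -0.02 and -0.08.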

How the data were processed

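RNA of 9 samples was analysed. The authors trimmed paired-end reads of 150 bases with cutadapt 3.1 and FastX-Toolkit 0.0.13, aligned them to rn6 with TopHat 2.1.1 (the submitters' processing notes name rn5 and TopHat2), and deposited whole-number counts for 35362 genes, not normalized. The deposited gene length is taken as given. The counting tool, strand setting, and treatment of multiply mapped reads are not given in the sources used here. The methods state 6 replicates in each group, and the data hold 3.

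Samples were grouped by their labels. Counts were normalized by TMM (factors 0.740 to 1.23), filtered with filterByExpr, and tested in edgeR 4.0.16 (R 4.3.3) by the quasi-likelihood test in one model of 3 groups, with Benjamini-Hochberg adjustment. The methods used DEGseq, at the same thresholds. The common biological coefficient of variation was 0.0685. Depths of 17591916 to 30299032 counts put 3 counts at 0.104 to 0.159 CPM, a limit for counting error alone. Simulated counts with known changes were used to test the fit.

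The members and the gene lists were chosen with earlier results of these data known, so no list test was run. Every member was named, with up to 3 genes per comparison with the largest change of each other list, all MiT/TFE factors, and the 5 genes most like Gla and Psap. A gene that this rule selects is left out of the text. Replicates of a group differed by more than counting noise (chi-square per degree of freedom 6.23 to 288). Alternatives were DESeq2 1.42.0, upper-quartile and total-count scaling, no filter, only the 2 groups compared, a replicate block, removal of rRNA genes, and leaving out each sample. Motifs were searched with Python 3.11.15 on both strands of RefSeq promoters (GRCr8). Neither a genome sequence nor protein sequences were used here.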

Additional observations from a re-analysis of the deposited data

Results flagged for a closer look

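By the direct test of EASCs against PASCs, the visceral sources differed in 5 of the 8 genes, all higher in EASCs, where 16.1% of all genes were higher and 14.5% lower. With total counts 3 were left, since Psap (adjusted p = 0.271) and Glb1 (adjusted p = 0.448) no longer passed. The log2 fold changes of EASCs against PASCs were 0.80 for Gla, 0.69 for Gm2a, 0.59 for Galc, 0.37 for Psap, and 0.30 for Glb1, and for each of them the 3 EASCs samples lay above the 3 PASCs samples. Groups of 3 samples are too small to be tested for an outlying sample.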

How the results depend on the processing

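Of the values under other settings, 190 of 192 counts of members, 380 of 384 log2 fold changes, and 46 of 48 medians of all genes stayed as reported, meaning the same direction and side of an adjusted p of 0.05 for a fold change, within 1.5 times for a count, and within 0.1 for a median. The exceptions arose with total counts in place of TMM, which moved the median log2 fold change of all genes tested to -0.33 in PASCs and -0.39 in EASCs. There, Galc in PASCs against SASCs turned to -0.11 and Hexa in EASCs against PASCs to -0.0059, neither of which passed in either scaling. In EASCs against PASCs, Glb1 at 0.22 and Psap at 0.29 no longer passed, which left 3 members higher. In EASCs against SASCs, 5 members were lower DEGs instead of 0, and in PASCs 7 instead of 5. Relative to the shifted medians, 7 members were still lower and Galc higher in both comparisons with SASCs, and all 8 were above the median in EASCs against PASCs.

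Leaving out each sample gave 4 to 5 lower DEGs in PASCs, where Arsa ranged from -1.06 to -0.96, and changed no count in the other comparisons. Deviations of samples with the same number correlated at -0.025 to 0.059, against -0.10 to 0.067 for samples with other numbers. Whether equal numbers mark the same animal is not given, and with 3 samples in a group these correlations cannot settle it. With the replicate block, the lower DEGs were 5 in PASCs and 0 in EASCs, 5 members were higher in EASCs against PASCs, and no member's call changed. Galc, at 221 to 275 counts in SASCs and PASCs, had the widest intervals of the members.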

Other observations

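The genes whose levels ran most nearly parallel to Gla and Psap were sought among 8565 tested genes with a mean of at least 10 CPM, by the correlation of log2 CPM over the 9 samples. The samples fall into 3 groups, so these correlations follow the group means and are given as a description. Gla was followed most closely by Sulf1 (r = 0.996), an extracellular sulfatase that edits heparan sulfate, Abi3bp (0.994), Tfpi (0.993), the inhibitor of tissue factor, B2m (0.993), the light chain of MHC class I, and Ptx3 (0.992), a secreted pattern recognition protein. Sulf1 averaged 720 CPM in SASCs and 246 CPM in PASCs, with 485 CPM in EASCs and thus with EASCs in the middle as for Gla.

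Psap was followed by Mxra8 (0.998), Rarres2 (0.996), the precursor of chemerin, C7 (0.996), a complement component, Lgmn (0.996), the lysosomal protease legumain, and Cxcl12 (0.996), a chemokine. These genes differed in the size of their decrease. Cxcl12 averaged 5246 CPM in SASCs against 1234 CPM in PASCs and 1927 CPM in EASCs, and Rarres2 averaged 427 CPM, 12.2 CPM, and 35.7 CPM. Rarres2 overlaps Lrrc61 on the other strand, and Sulf1, Abi3bp, Tfpi, and Ptx3 also overlap genes that had counts. Among the members, the correlation with Gla was 0.969 for Gm2a, 0.952 for Glb1, 0.922 for Psap, 0.838 for Asah1, 0.829 for Arsa, 0.796 for Hexa, and -0.06 for Galc.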
